A study of Mus musculus with 16 samples.

Results

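The genes described are 10 antioxidant genes linked to the transcription factor NRF2, taken by name from a table of 23356 mouse genes: Nfe2l2, Hmox1, Nqo1, Gclc, Gclm, Slc7a11, Gsr, Txnrd1, Srxn1 and Prdx1. They were chosen for what their products are known to do, but with earlier results of these data known. All 10 were in the table. RNA was sequenced from bone marrow-derived dendritic cells (BMDCs) of C57BL/6 background, grown for 6 days with 10 ng/ml GM-CSF and 10 ng/ml IL-4, from mice stated to be 6 to 12 weeks old. The 4 genotypes were wild-type, Tmem173-/- (lacking STING, the receptor of cyclic dinucleotides), Irf1-/- and Irf3/7-/- (lacking both IRF3 and IRF7). BMDCs of each genotype were left untreated or were given c-di-GMP (25 µg/ml by the labels, while the study's legends give a higher dose), a bacterial cyclic dinucleotide that activates STING, and all were collected after 18 h. The 16 samples were 2 for each of the 8 conditions, and the authors pooled each pair into 1 FPKM (fragments counted per length of transcript and per total of mapped fragments), so no spread between replicates can be given and no test over replicates was possible. No sorting step is named in the labels, so a culture may hold cells other than dendritic cells.

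NRF2, encoded by Nfe2l2, is held at low levels by KEAP1, an adaptor that marks it for degradation and that is modified by oxidants and electrophiles. When it escapes, it pairs with small MAF proteins on antioxidant response elements and raises genes for glutathione synthesis, thioredoxin recycling, quinone reduction and haem breakdown. The level of NRF2 protein is set largely after transcription, and several of these genes are also read by other factors, among them AP-1, BACH1 and ATF4. In dendritic cells and macrophages these genes are known for handling the oxidants that activated cells make.

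Stretches before the start sites of 4 members are shown because they hold the letters such factors are known to read. RefSeq windows of 300 bases (250 before to 50 after the start, GRCm38.p6) were given for 7 of the 10 members, 9 windows in all, and Hmox1, Gclc and Gsr were the 3 without one. The core of the antioxidant response element was searched as TGACNNNGC and the AP-1 site as TGACTCA, on both strands. The stretches below lie on the plus strand, as the genes do, read 5′ to 3′, and overlap no exon of the GENCODE annotation. However, the loci the deposited table gives for Prdx1 and Txnrd1 begin before the stretches of these genes. The Txnrd1 stretch lies inside its locus, which begins at 82833951, and before a later start of that gene. Capitals mark the antioxidant response element core in Prdx1, Gclm and Txnrd1, and the AP-1 letters in Srxn1.
Prdx1, chr4:116685440-116685500: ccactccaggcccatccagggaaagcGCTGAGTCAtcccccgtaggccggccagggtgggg
Gclm, chr3:122245397-122245457: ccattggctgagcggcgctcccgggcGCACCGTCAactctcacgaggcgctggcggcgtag
Srxn1, chr2:152105405-152105503: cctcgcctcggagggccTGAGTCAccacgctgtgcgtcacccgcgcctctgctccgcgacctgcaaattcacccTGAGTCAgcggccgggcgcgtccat
Txnrd1, chr10:82859088-82859148: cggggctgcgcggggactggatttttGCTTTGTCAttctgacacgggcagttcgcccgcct

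The core was found in 5 members. Counted from the start site, the first base of the match lay at -134 in Gclm, at -133 in Prdx1, at -240 in Nfe2l2, at 28 in Srxn1 and at -92 in 1 of the 3 windows of Txnrd1. It occurred in 12.4% of 32851 windows, or in 14.0% of 27025 genes. The AP-1 letters were found in 2 members, Srxn1 and Prdx1, with 2 matches each, against 5.20% of windows and 5.95% of genes. In Prdx1 the capitals above also hold the AP-1 letters, so that 1 stretch counts under both motifs. The windows of Nqo1 and Slc7a11 held neither. A match is a description of the sequence and not a binding site.

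Every member had the status OK in all 8 conditions and passed the minimum of 1 FPKM in every comparison. A difference was called where it exceeded 2-fold on log2(FPKM + 0.1) and the authors' intervals did not overlap. For the members, the half-width of such an interval, which is the distance from its centre to a bound, was 22.2% to 31.4% of the FPKM, with a median of 24.7%. Depth per sample cannot be read from FPKM. Of the targeted genes, Tmem173 was at 8.97 and 7.49 FPKM in untreated and treated Tmem173-/- BMDCs, against 77.0 to 118 FPKM in the other genotypes. Irf1 was at 25.9 and 116 FPKM in Irf1-/- and at 149 and 245 FPKM in wild-type BMDCs. Irf7 was at 1.07 and 4.97 FPKM in Irf3/7-/- and at 15.2 and 687 FPKM in wild-type BMDCs. Irf3 was at 7.74 FPKM in untreated but 20.2 FPKM in treated Irf3/7-/- BMDCs, and at 19.9 and 15.8 FPKM in the wild-type pair. An FPKM covers the whole gene, also exons outside a deleted part, so the remaining values do not by themselves check the deletions.

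All 6 dendritic cell markers were at 1 FPKM or more in every condition, and their summed level was 4472 to 7282 FPKM. Cd74, at 3336 to 4983 FPKM, made up most of each sum, and it hid differences in single markers. Ccr7 was at 265 and 1257 FPKM in untreated and treated wild-type BMDCs, but at 130 and 114 FPKM in Tmem173-/- BMDCs. Ccr7 went from 235 to 1026 FPKM in Irf1-/- and from 171 to 1208 FPKM in Irf3/7-/- BMDCs. Among untreated BMDCs, H2-Ab1 was at 278 FPKM in Irf1-/- against 650 FPKM in wild-type. Markers of other cells also differed between genotypes and between treatments. The summed level of the 5 neutrophil markers in the table (S100a8, S100a9, Elane, Mpo, Camp) was 19086 and 13776 FPKM in untreated and treated Tmem173-/- BMDCs, against 1361 to 3906 FPKM in the other 6 conditions. Most of each sum came from S100a8 and S100a9. In untreated wild-type BMDCs Elane, Mpo and Camp were at 2.45, 3.70 and 18.8 FPKM. They were at 16.4, 24.7 and 7.10 FPKM in untreated Irf1-/- and at 8.61, 16.5 and 20.5 FPKM in untreated Irf3/7-/- BMDCs. S100a8 and S100a9 were lower in these knockouts than in untreated wild-type BMDCs. The 6 macrophage markers summed to 468 and 445 FPKM in Tmem173-/- BMDCs, against 168 to 276 FPKM elsewhere. The 5 T cell markers summed to 57.5 and 39.9 FPKM in untreated and treated wild-type BMDCs and to 80.6 and 143 FPKM without IRF3 and IRF7. In Irf1-/- BMDCs they summed to 4.50 and 3.56 FPKM, and in Tmem173-/- BMDCs, where none reached 1 FPKM, to 0.974 and 0.854 FPKM. Among them Cd4 did not go with the sum, at 0.0737 to 0.154 FPKM over the 8 conditions and highest in untreated Irf1-/- BMDCs. The 3 NK cell markers, mostly Gzma, were also low in Irf1-/- and Tmem173-/- BMDCs, with 351 and 329 FPKM in wild-type, 319 and 901 FPKM in Irf3/7-/-, 5.63 and 8.43 FPKM in Irf1-/-, and 0.0565 and 0.0588 FPKM in Tmem173-/- BMDCs. Basophil and mast cell markers summed to 31.4 to 121 FPKM, highest in Irf3/7-/- BMDCs, B cell markers to at most 5.41 FPKM, and of the erythroid markers Hbb-b1 alone reached 1 FPKM. Fewer cells of a type and less RNA per cell cannot be told apart in such bulk samples.

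**Figure D1:**
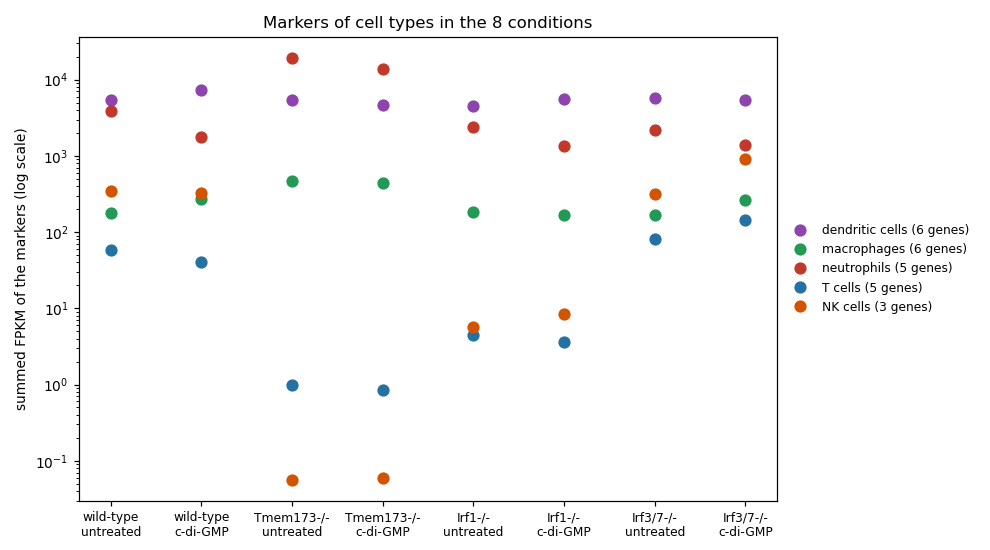
Summed FPKM (log scale) of the markers of 5 cell types in each of the 8 conditions, 1 point per condition with no error. Neutrophil markers stood at 19086 and 13776 FPKM in Tmem173-/- BMDCs, and T cell and NK cell markers were low in Tmem173-/- and Irf1-/- BMDCs.

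Nfe2l2 (chromosome 2, 75675519 to 75704641, minus strand), the gene of NRF2 itself, was at 60.0 FPKM (interval 45.8 to 74.2) in untreated and 63.5 FPKM (48.5 to 78.4) in treated wild-type BMDCs. It was at 145 FPKM (112 to 178) and 157 FPKM (120 to 193) in Tmem173-/- BMDCs. The values were 60.9 and 55.9 FPKM in Irf1-/- BMDCs and 85.3 and 71.7 FPKM in Irf3/7-/- BMDCs. Tmem173-/- BMDCs therefore stood above all 6 other conditions with no overlap of intervals, and the other 6 conditions overlapped their neighbours. Without c-di-GMP the difference from wild-type BMDCs was 2.42-fold (log2 1.27 ± 0.47, where the error is the half-width carried over from the deposited intervals, here and below). With c-di-GMP it was 2.46-fold (log2 1.30 ± 0.48). The log2 change with c-di-GMP was between -0.25 and 0.11 in the 4 genotypes, and none of these was called.

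**Figure D2:**
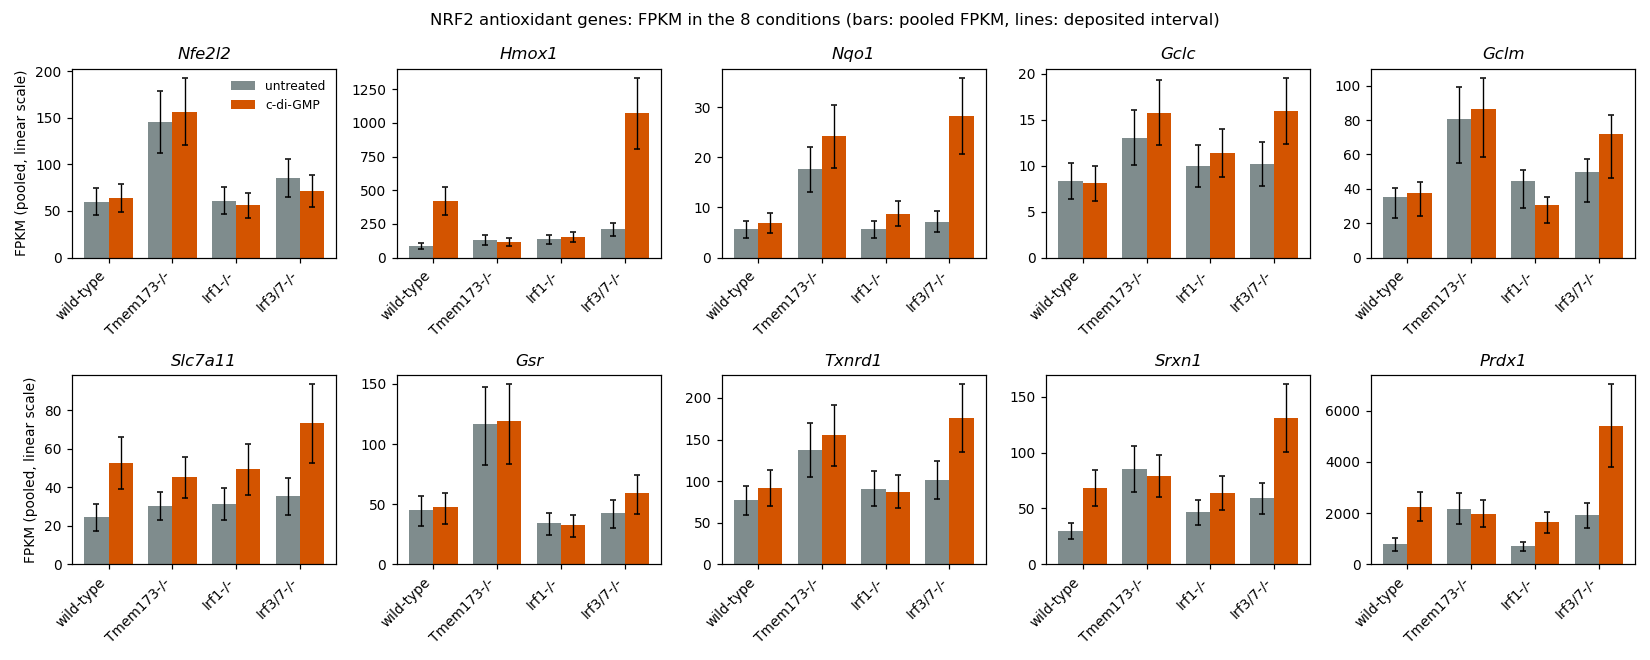
FPKM (linear scale from 0) of the 10 members in 4 genotypes, untreated in grey and with c-di-GMP in orange. Bars are the authors' pooled FPKM and lines their intervals, and Hmox1 and Prdx1 reached 1074 and 5405 FPKM in treated Irf3/7-/- BMDCs.

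Hmox1 (chromosome 8, 75093618 to 75100593, plus strand) encodes haem oxygenase, which breaks haem down to iron, carbon monoxide and biliverdin. It was at 85.9 FPKM (65.8 to 106) in untreated and 423 FPKM (319 to 528) in treated wild-type BMDCs, and at 208 FPKM (159 to 258) and 1074 FPKM (807 to 1337) in Irf3/7-/- BMDCs. Its levels were 131 and 115 FPKM in Tmem173-/- BMDCs and 135 and 151 FPKM in Irf1-/- BMDCs. The 2 highest conditions were thus treated Irf3/7-/- and treated wild-type BMDCs, apart from each other and from the rest, while the values of Tmem173-/- and Irf1-/- BMDCs overlapped before and after treatment. With c-di-GMP Hmox1 rose 4.92-fold in wild-type (log2 2.30 ± 0.49) and 5.15-fold in Irf3/7-/- BMDCs (log2 2.36 ± 0.50). The log2 change was -0.19 ± 0.53 in Tmem173-/- and 0.17 ± 0.49 in Irf1-/- BMDCs, neither of them called. The difference of the changes was itself called for both knockouts, at -2.49 ± 0.73 for Tmem173-/- minus wild-type and at -2.13 ± 0.69 for Irf1-/- minus wild-type. For Irf3/7-/- minus wild-type it was 0.06 ± 0.70. Hmox1 was also 2.43-fold higher in Irf3/7-/- than in wild-type BMDCs without treatment (log2 1.28 ± 0.48). The genotypes in which Hmox1 rose were those in which the T cell markers summed to 39.9 FPKM or more, against at most 4.50 FPKM in the others, and the part of those cells in the result was not tested.

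Nqo1 (chromosome 8, 107388225 to 107403205, minus strand) encodes a quinone reductase and is among the most used readouts of NRF2. It was low in wild-type BMDCs, at 5.61 FPKM (3.92 to 7.25) untreated and 6.94 FPKM (4.89 to 8.94) treated. It was at 17.6 and 24.2 FPKM in Tmem173-/- BMDCs and at 5.63 and 8.75 FPKM in Irf1-/- BMDCs. In Irf3/7-/- BMDCs it went from 7.16 FPKM (5.05 to 9.22) to 28.3 FPKM (20.6 to 35.9). Treated Irf3/7-/- and both Tmem173-/- conditions were therefore the high ones, and overlapped at their neighbours, and they stood apart from the other 5. Nqo1 rose 3.91-fold with c-di-GMP in Irf3/7-/- BMDCs (log2 1.97 ± 0.57), while the log2 change was 0.30 ± 0.59 in wild-type BMDCs. The difference of these changes was called, at 1.67 ± 0.82. Without treatment Nqo1 was 3.10-fold higher in Tmem173-/- than in wild-type BMDCs (log2 1.63 ± 0.56).

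Glutathione is made by glutamate-cysteine ligase, whose catalytic subunit is Gclc and whose modifier subunit is Gclm, from cysteine that the cystine transporter subunit Slc7a11 supplies. Gclc (chromosome 9, 77754535 to 77794489, plus strand) was at 8.32 and 8.07 FPKM in untreated and treated wild-type BMDCs, 13.0 and 15.8 FPKM in Tmem173-/-, 10.0 and 11.4 FPKM in Irf1-/-, and 10.2 and 16.0 FPKM in Irf3/7-/- BMDCs. Its highest level was 1.98 times its lowest, the narrowest range among the members, and it was called in no comparison. Gclm (chromosome 3, 122245557 to 122267215, plus strand) was at 35.2 and 37.4 FPKM in wild-type, 80.9 and 86.5 FPKM in Tmem173-/-, 44.3 and 30.8 FPKM in Irf1-/-, and 49.6 and 71.6 FPKM in Irf3/7-/- BMDCs. Gclm was 2.29-fold higher in untreated (log2 1.20 ± 0.53) and 2.31-fold higher in treated Tmem173-/- BMDCs (log2 1.21 ± 0.54) than in wild-type BMDCs of the same treatment. The authors' intervals of Gclm are lopsided, for example 22.8 to 40.4 FPKM around 35.2 FPKM in untreated wild-type BMDCs.

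Slc7a11 (chromosome 3, 50364936 to 50443613, minus strand) rose with c-di-GMP, which neither ligase subunit did by a call. It was at 24.4 FPKM (17.5 to 31.2) in untreated and 52.7 FPKM (39.0 to 66.2) in treated wild-type BMDCs, and at 35.8 FPKM (25.9 to 44.8) and 73.4 FPKM (52.6 to 93.5) in Irf3/7-/- BMDCs. In Tmem173-/- BMDCs its levels were 30.2 and 45.3 FPKM and in Irf1-/- BMDCs at 31.6 and 49.8 FPKM. The treated condition was the higher of the pair in each genotype, and the intervals of the pair were apart in wild-type and Irf3/7-/- BMDCs only. Slc7a11 rose 2.15-fold in wild-type (log2 1.11 ± 0.55) and 2.05-fold in Irf3/7-/- BMDCs (log2 1.03 ± 0.55), close to the threshold in both. The log2 change was 0.58 ± 0.49 in Tmem173-/- and 0.66 ± 0.54 in Irf1-/- BMDCs, and the difference of the changes from wild-type was called for none of the knockouts, at -0.52 ± 0.74, -0.45 ± 0.77 and -0.07 ± 0.78 for Tmem173-/-, Irf1-/- and Irf3/7-/-. No knockout differed from wild-type BMDCs in Slc7a11 by a call, untreated or treated.

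Gsr (chromosome 8, 33653238 to 33698162, plus strand), the reductase that returns oxidized glutathione to its reduced form, was at 45.6 FPKM (31.9 to 56.9) and 47.6 FPKM (33.4 to 59.4) in untreated and treated wild-type BMDCs. It was at 117 FPKM (82.3 to 148) and 119 FPKM (83.4 to 150) in Tmem173-/- BMDCs, at 34.7 and 33.2 FPKM in Irf1-/- BMDCs, and at 43.0 and 59.8 FPKM in Irf3/7-/- BMDCs. As with Nfe2l2, both Tmem173-/- conditions were apart from the other 6, which overlapped their neighbours. The difference from wild-type BMDCs was 2.56-fold untreated (log2 1.36 ± 0.56) and 2.50-fold treated (log2 1.32 ± 0.56). The log2 change with c-di-GMP was between -0.06 and 0.47 in the 4 genotypes and was called in none.

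The last 3 members serve the thioredoxin and peroxiredoxin system: Txnrd1 reduces thioredoxin, Prdx1 is a peroxidase that thioredoxin reduces, and Srxn1 repairs overoxidized peroxiredoxins. Txnrd1 (chromosome 10, 82833951 to 82897724, plus strand) was at 76.8 and 92.1 FPKM in wild-type, 137 and 155 FPKM in Tmem173-/-, 90.7 and 87.3 FPKM in Irf1-/-, and 101 and 176 FPKM in Irf3/7-/- BMDCs. It was called against wild-type BMDCs in no knockout, and its call was between treated Irf1-/- and treated Irf3/7-/- BMDCs (log2 -1.01 ± 0.47). Srxn1 (chromosome 2, 152105524 to 152111376, plus strand) went from 29.9 FPKM (23.0 to 36.8) to 68.6 FPKM (52.4 to 84.7) in wild-type and from 59.1 FPKM (45.2 to 73.0) to 131 FPKM (100 to 161) in Irf3/7-/- BMDCs. Its levels were 85.1 and 78.8 FPKM in Tmem173-/- BMDCs and 46.5 and 63.9 FPKM in Irf1-/- BMDCs. Untreated wild-type BMDCs were thus the lowest condition for Srxn1, and untreated Tmem173-/- BMDCs already overlapped treated wild-type BMDCs. Srxn1 rose 2.29-fold in wild-type (log2 1.20 ± 0.47) and 2.21-fold in Irf3/7-/- BMDCs (log2 1.14 ± 0.48), with log2 changes of -0.11 ± 0.49 in Tmem173-/- and 0.46 ± 0.48 in Irf1-/- BMDCs that were not called. The difference of the changes was called for Tmem173-/- minus wild-type, at -1.31 ± 0.68, and not for Irf1-/- minus wild-type, at -0.74 ± 0.67. The interval of the latter, -1.41 to -0.07, left out 0, so that it missed the call by size alone.

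Prdx1 (chromosome 4, 116684965 to 116700000, plus strand) was the most abundant member on this per-length scale. It went from 788 FPKM (542 to 1037) to 2259 FPKM (1690 to 2829) in wild-type BMDCs and from 1916 FPKM (1427 to 2402) to 5405 FPKM (3790 to 7018) in Irf3/7-/- BMDCs. In Irf1-/- BMDCs it went from 702 FPKM (530 to 874) to 1640 FPKM (1220 to 2057), and in Tmem173-/- BMDCs it was at 2164 and 1985 FPKM. The lowest conditions were untreated Irf1-/- and untreated wild-type BMDCs, treated Irf3/7-/- BMDCs stood apart at the top, and the 5 conditions between overlapped their neighbours. Prdx1 rose in 3 genotypes, 2.87-fold in wild-type (log2 1.52 ± 0.58), 2.34-fold in Irf1-/- (log2 1.22 ± 0.51) and 2.82-fold in Irf3/7-/- BMDCs. The log2 change in Tmem173-/- BMDCs was -0.12 ± 0.55, and its difference from that in wild-type BMDCs was called, at -1.64 ± 0.80. The same difference was not called for Irf1-/-, at -0.30 ± 0.77, or for Irf3/7-/-, at -0.02 ± 0.81. The study, by its own clustering, lists Prdx1 with IRF1-dependent genes that it describes as not rising in Irf1-/- BMDCs, which differs from the rise given here. The loci of Prdx1 and Txnrd1 overlap 1 further gene each in the table, AV051173 at 0.277 to 1.81 FPKM and Eid3 at 0.282 to 1.67 FPKM, both far below the member they overlap.

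Set side by side, the members responded to c-di-GMP in part. In wild-type BMDCs 4 of 10 rose (Hmox1, Prdx1, Srxn1, Slc7a11) and none fell, where 10.5% of all genes tested rose and 9.96% fell. The other 6 had log2 changes between -0.04 and 0.30, so that the median over the members was 0.28, against 0.00 over all genes tested. Between the same conditions the neutrophil markers went from 3906 to 1789 FPKM and the macrophage markers from 180 to 276 FPKM, and their part was not tested. Not all of these markers went with their sum. Camp rose from 18.8 to 37.0 FPKM, while Csf1r fell from 54.3 to 48.6 FPKM and C1qa from 12.2 to 3.14 FPKM. The other markers of each list went with it. In Tmem173-/- BMDCs none of the 10 was called, where 0.046% of genes rose and 0.0092% fell. In Irf1-/- BMDCs 1 of 10 rose, a share near the 9.67% of all genes that rose, and none fell, where 7.81% of genes fell. In Irf3/7-/- BMDCs 5 of 10 rose, the 4 of wild-type BMDCs and Nqo1, and none fell, where 10.2% of genes rose and 7.68% fell. The median over the members was 0.91 in Irf3/7-/- BMDCs, 0.17 in Irf1-/- BMDCs and 0.10 in Tmem173-/- BMDCs. Comparing the changes themselves, the response was smaller than in wild-type BMDCs for 3 members in Tmem173-/- BMDCs (background 10.9% lower, 10.9% higher) and for 1 in Irf1-/- BMDCs (2.48% lower, 2.55% higher). It was larger for 1 member in Irf3/7-/- BMDCs (3.8% higher, 2.52% lower). With a threshold of 4-fold, 1 member would be called in wild-type and 1 in Irf3/7-/- BMDCs, Hmox1 in both, and the share of all genes at that threshold is not given. These comparisons share the wild-type columns.

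**Figure D3:**
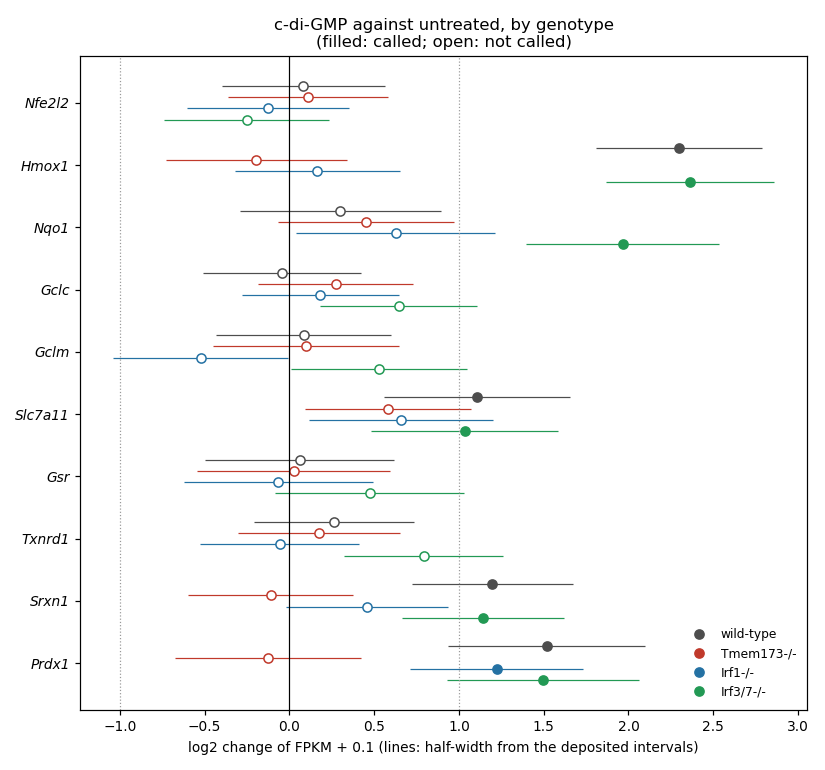
Log2 change of FPKM + 0.1 with c-di-GMP for each member in 4 genotypes, with the half-width carried over from the deposited intervals. Filled points were called: 5 members in Irf3/7-/-, 4 in wild-type, 1 in Irf1-/- and none in Tmem173-/- BMDCs.

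Before treatment, the largest number of members differed in Tmem173-/- BMDCs. Of the 10, 6 were higher than in untreated wild-type BMDCs (Nfe2l2, Nqo1, Gclm, Srxn1, Prdx1, Gsr) and none lower, where 5.04% of all genes were higher and 5.95% lower. The 4 not called had log2 differences of 0.31 in Slc7a11, 0.61 in Hmox1, 0.64 in Gclc and 0.84 in Txnrd1, and the median over the members was 1.23, against 0.01 over all genes. The neutrophil markers stood at 19086 against 3906 FPKM in the same pair of conditions, and the macrophage markers at 468 against 180 FPKM, and their part in these differences was not tested. Among these markers Mertk alone was lower in Tmem173-/- BMDCs, at 2.83 against 4.89 FPKM. In untreated Irf1-/- BMDCs no member was called, where 1.26% of genes were higher and 3.52% lower, and the log2 differences lay between -0.39 in Gsr and 0.65 in Hmox1. In untreated Irf3/7-/- BMDCs 2 members were higher, Hmox1 and Prdx1, where 1.17% of genes were higher and 0.863% lower, and Srxn1 followed at a log2 difference of 0.98 ± 0.47, just under the threshold. The basophil and mast cell markers summed to 78.7 against 36.7 FPKM in this pair and the T cell markers to 80.6 against 57.5 FPKM. The sums of the neutrophil markers, at 2207 against 3906 FPKM, and of the NK cell markers, at 319 against 351 FPKM, were lower. The part of these cells was not tested.

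After treatment, Hmox1 separated from the other members. In treated Tmem173-/- BMDCs it was 3.68-fold lower than in treated wild-type BMDCs (log2 -1.88 ± 0.52), while Nfe2l2, Nqo1, Gclm and Gsr were higher, at log2 differences of 1.21 to 1.79. All genes showed 12.9% higher and 13.5% lower in that comparison. The neutrophil markers were at 13776 against 1789 FPKM there and the macrophage markers at 445 against 276 FPKM, and their part was not tested. Among these markers Fcgr1 and Mertk alone were lower in Tmem173-/- BMDCs, at 29.3 against 40.6 FPKM and at 3.74 against 16.9 FPKM. Srxn1 and Prdx1, which were higher in Tmem173-/- BMDCs before treatment, were at log2 differences of 0.20 ± 0.48 and -0.19 ± 0.52 after it. In treated Irf1-/- BMDCs Hmox1 was the single member called, 2.80-fold lower (log2 -1.48 ± 0.49), where 4.91% of genes were lower and 2.65% higher. In treated Irf3/7-/- BMDCs 3 members were higher than in treated wild-type BMDCs, namely Hmox1 at 2.54-fold, Nqo1 at 4.03-fold and Prdx1 at 2.39-fold, where 4.61% of genes were higher and 2.69% lower. Gclm, Gclc, Srxn1 and Txnrd1 had log2 differences of 0.93 to 0.98 there with intervals that did not overlap, and so missed the call by size alone. The log2 difference was above 0 for all 10 members, with a median of 0.93 against -0.02 over all genes. The T cell markers in this pair of conditions were at 143 against 39.9 FPKM and the NK cell markers at 901 against 329 FPKM. Basophil and mast cell markers were at 121 against 39.1 FPKM, while the neutrophil markers were lower, at 1393 against 1789 FPKM. The part of these cells was not tested.

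**Figure D4:**
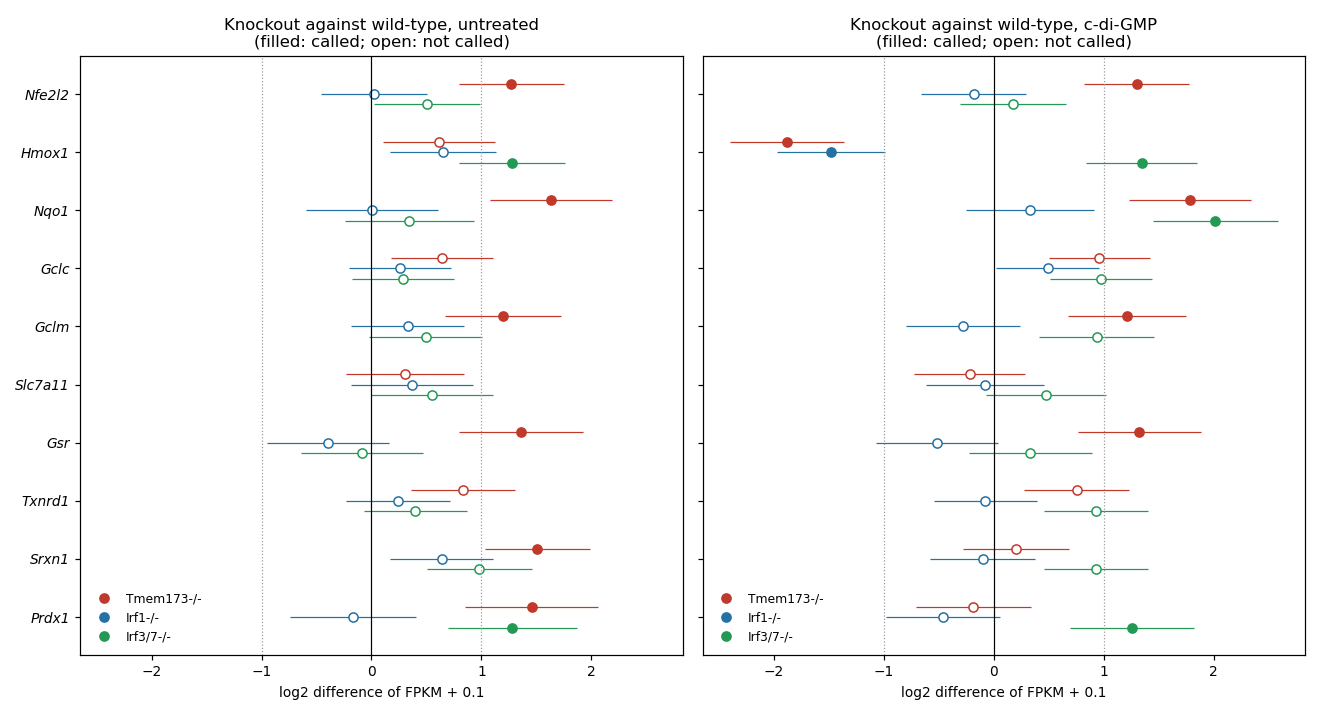
Log2 difference of FPKM + 0.1 between each knockout and wild-type BMDCs, untreated on the left and with c-di-GMP on the right, with the half-width carried over from the deposited intervals. Filled points were called, and Hmox1 in treated Tmem173-/- and Irf1-/- BMDCs, at -1.88 and -1.48, is the single member called lower.

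The knockouts that kept a response to c-di-GMP over the whole table were compared directly. Of the 10 members, 6 were lower in treated Irf1-/- than in treated Irf3/7-/- BMDCs and none higher, where 6.62% of all genes were lower and 3.22% higher. These were Hmox1 at 7.09-fold lower (log2 -2.83 ± 0.49), Prdx1 at 3.29-fold, Nqo1 at 3.21-fold, Gclm at 2.32-fold, Srxn1 at 2.04-fold and Txnrd1 at 2.01-fold. The other 4 had log2 differences between -0.85 in Gsr and -0.36 in Nfe2l2. The median over the members was -1.02, against 0.04 over all genes. The T cell markers were at 3.56 and 143 FPKM in the same conditions, and the NK cell markers at 8.43 and 901 FPKM, and their part was not tested.

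Over all 8 conditions, the members kept no common order. The highest level was in treated Irf3/7-/- BMDCs for 7 members and in treated Tmem173-/- BMDCs for the remaining 3 (Nfe2l2, Gclm, Gsr). The highest level was 12.5 times the lowest for Hmox1, 7.70 times for Prdx1, 5.04 times for Nqo1, 4.37 times for Srxn1 and 3.59 times for Gsr, and less for the other 5, down to 1.98 times for Gclc. Of the 7 pairs of neighbours in each member's order, at most 2 had intervals apart, so most neighbours did not differ beyond them. Correlations of log2(FPKM + 0.1) over the 8 conditions, which share genotypes and cultures, are given as descriptions. Of all pairs of members, Nqo1 and Txnrd1 were highest at r = 0.96, then Nfe2l2 and Gsr at 0.94, and Nfe2l2 and Hmox1 lowest at -0.22. Most pairs were above 0, and only Nfe2l2 with Slc7a11 (-0.09) and Hmox1 with Gsr (-0.08) were also below it.

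Among 7372 genes at 10 FPKM or more in a condition, Hmox1 was most like Pfkfb3, an enzyme that drives glycolysis (r = 0.97), Chpf2 (0.96) and the growth factor gene Vegfa (0.96). Txnrd1 was most like Abcc1 (r = 0.97), an exporter of glutathione conjugates, and Ptgr1 (0.96), a reductase of lipid electrophiles. Nqo1 and Gclc shared Kctd9 as the most similar gene, at 0.96 and 0.95. Nfe2l2 was most like Tshz1 (0.98), Gclm like the C-type lectin gene Clec4n (0.95), Srxn1 like Rusc2 (0.96), Prdx1 like Mocs2 (0.97) and Gsr like 1100001G20Rik (0.99).

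Among 14 partners and regulators of NRF2, 12 were tested. In wild-type BMDCs 2 of the 12 rose with c-di-GMP and none fell, where 10.5% of all genes rose and 9.96% fell. Keap1, the adaptor that holds NRF2 down, went from 21.9 to 46.9 FPKM (log2 1.09). Sqstm1, the autophagy receptor that can pull KEAP1 away, went from 138 to 459 FPKM (log2 1.74). Btrc, a further adaptor for NRF2 degradation, had a log2 change of 0.87 and Nfe2, a relative of NRF2 found in blood cells, of -0.59, neither called. Sqstm1 also rose in Irf1-/- (log2 1.29) and Irf3/7-/- BMDCs (2.18), with Keap1 (1.20) and Btrc (1.04) in Irf1-/- and the small MAF gene Mafk (1.23) in Irf3/7-/- BMDCs. Of all genes, 9.67% rose in Irf1-/- and 10.2% in Irf3/7-/- BMDCs. None was called in Tmem173-/- BMDCs, where 0.046% of all genes rose and 0.0092% fell. The change was smaller there than in wild-type BMDCs for Keap1 (-1.22) and Sqstm1 (-1.87), where it was lower for 10.9% of all genes. Untreated Tmem173-/- BMDCs differed from wild-type BMDCs in 1 of the 12, Nfe2, at 33.0 against 10.5 FPKM (log2 1.65). Of all genes, 5.04% were higher there and 5.95% lower.

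Among 24 other known NRF2 targets, 19 were tested in wild-type BMDCs, and the shares called were not far from those of all genes, of which 10.5% rose and 9.96% fell. With c-di-GMP 2 rose, the ferritin heavy chain gene Fth1 from 2311 to 10005 FPKM (log2 2.11) and the glutathione transferase gene Gstm1 from 10.5 to 24.8 FPKM (log2 1.23). At the same time 3 fell, the epoxide hydrolase gene Ephx1 (log2 -1.60), the pentose phosphate enzyme gene Tkt (-1.03) and the aldehyde dehydrogenase gene Aldh3a1 (-2.93), the last from only 2.05 FPKM. Fth1, like Hmox1, had a smaller change than in wild-type BMDCs in Tmem173-/- (difference -2.42) and Irf1-/- BMDCs (-1.33), and was lower in treated Irf1-/- than in treated wild-type BMDCs (log2 -1.80). In untreated Tmem173-/- BMDCs 4 of 19 were higher, Gstm1 (2.06), Blvrb (1.58), Cbr3 (1.42) and Fth1 (1.32), and 1 was lower, Aldh3a1. Of all genes, 5.04% were higher there and 5.95% lower. The median over the 19 was 0.15 for treated against untreated wild-type BMDCs and 0.52 for untreated Tmem173-/- against wild-type BMDCs, where the median over the 10 members was 0.28 and 1.23.

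Of 23 other antioxidant enzymes and their regulators, 20 were tested. In wild-type BMDCs given c-di-GMP 2 rose, the peroxidase gene Prdx5 (log2 1.27) and the mitochondrial superoxide dismutase gene Sod2 (1.13), and 2 fell, the mitochondrial peroxidase gene Prdx3 (-1.14) and the thioredoxin inhibitor gene Txnip (-1.10), shares near the 10.5% and 9.96% of all genes that rose and fell. In Irf3/7-/- BMDCs 2 rose, Cat (1.24) and Prdx6 (1.12), and 3 fell, where 10.2% of all genes rose and 7.68% fell. In Irf1-/- BMDCs none was called, where 9.67% of all genes rose and 7.81% fell. In Tmem173-/- BMDCs none was called either, where 0.046% rose and 0.0092% fell. Prdx6 (1.34), Msra (1.32) and Msrb1 (1.36) were higher in untreated Tmem173-/- than in wild-type BMDCs, 3 of 20 where 5.04% of all genes were higher. The median log2 change over the list in treated wild-type BMDCs was -0.13, where that of the members was 0.28.

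Of 8 genes that make reactive species or electrophiles, 3 rose in wild-type BMDCs after treatment and none fell. Of all genes, 10.5% rose and 9.96% fell. Nos2, the inducible nitric oxide synthase, went from 15.2 to 334 FPKM (log2 4.45), Irg1, which makes itaconate, from 164 to 1717 FPKM (3.39), and Cybb, the catalytic subunit of the phagocyte oxidase, from 80.4 to 233 FPKM (1.53), while the oxidase subunit Ncf4 had a log2 change of 0.81 that was not called. The same 3 rose in Irf1-/- and in Irf3/7-/- BMDCs, where 9.67% and 10.2% of all genes rose. None rose in Tmem173-/- BMDCs, where 0.046% of all genes did. There Nos2 stood at 0.102 and 0.222 FPKM, Irg1 at 55.6 and 60.5 FPKM and Cybb at 303 and 366 FPKM. Against untreated wild-type BMDCs, untreated Tmem173-/- BMDCs were higher in 2 of the 8, among them Cybb (log2 1.91), and lower in 2, Nos2 and Irg1 (-1.56). Of all genes, 5.04% were higher and 5.95% lower. Treated Irf1-/- BMDCs had 65.1 FPKM of Nos2 and treated Irf3/7-/- BMDCs 780 FPKM.

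ATF4, a stress factor that is also known to act on Slc7a11 and related genes, was represented by 8 genes. In wild-type BMDCs Ddit3 (log2 2.08) and Trib3 (1.04) rose with c-di-GMP and Psat1 fell (-1.11), where 10.5% of all genes rose and 9.96% fell. Slc3a2, the partner chain of Slc7a11, had a log2 change of 0.90 that was not called. In Irf1-/- BMDCs Ddit3 (1.96) and Trib3 (1.02) rose, and in Irf3/7-/- BMDCs Ddit3 (1.99), Trib3 (2.10) and Chac1 (1.29), a glutathione-degrading enzyme. Of all genes, 9.67% rose in Irf1-/- and 10.2% in Irf3/7-/- BMDCs. None was called in Tmem173-/- BMDCs, where 0.046% of all genes rose and 0.0092% fell. None of the 8 differed between untreated Tmem173-/- and wild-type BMDCs, where 5.04% of all genes were higher and 5.95% lower.

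**Figure D5:**
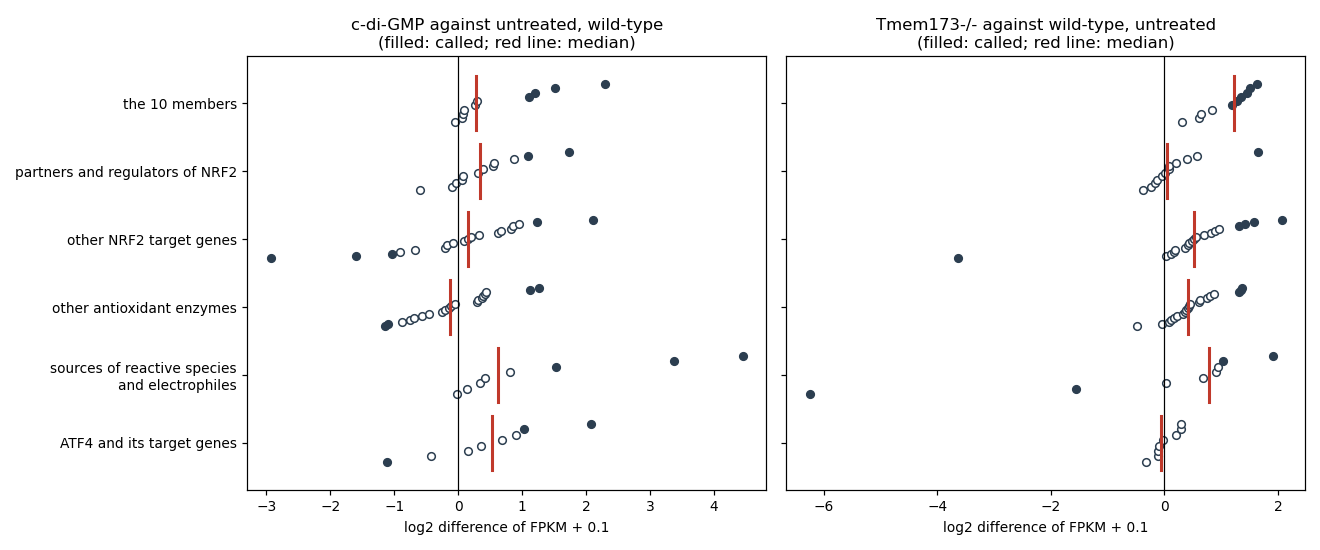
Log2 differences of FPKM + 0.1 for the 10 members and the tested genes of 5 related lists, for treated against untreated wild-type BMDCs on the left and for untreated Tmem173-/- against wild-type BMDCs on the right. Each point is a gene, filled where called, and red lines mark medians, which were 0.28 and 1.23 for the members.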

How the data were processed

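Libraries were made with a stranded mRNA kit. The authors deposited 1 Cuffdiff gene table (version 1.06 by the submitters' processing notes) with an FPKM, the bounds of its interval and a status for each condition, pooled over 2 samples, so the depth of each sample is unknown. The 8 conditions were matched to the labels by column name, of which the treated Tmem173-/- column carries a different suffix (GDP) and was read as treated because it is the only other column of that genotype. The 3 value columns of 1 further condition, outside the samples used here, were not used. The notes name mm9, but the loci fit GRCm38: 21454 of 21681 genes named once overlapped the GENCODE gene of that name. A setting for opposing-strand libraries is stated for the authors' SeqMonk work, while the aligner and the strand setting behind the deposited Cuffdiff table are not given in the sources used here.

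From the FPKM, log2(FPKM + 0.1) was computed. A gene was tested at 1 FPKM or more in a compared condition with status OK, which 23245 genes had in all 8 conditions, and was called at over 2-fold with intervals apart. Differences of changes were called above 2-fold where the interval, from half-widths added in quadrature, left out 0. The 11 comparisons and 3 differences were computed over all genes, and the calling rules were tried on simulated data. The simulated noise came from the authors' intervals alone, and the planted changes were 4-fold or more. Smaller changes and differences between cultures were therefore not covered. No p-value is reported, and p-values from the intervals entered 1 alternative only. In 192 genes, none a member, a value lay outside its own interval.

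Members and lists were chosen with earlier results of these data known. The text names the members, the targeted genes, per list up to 4 genes with the largest wild-type change, and per member up to 3 genes with the highest r. Other list genes were named after their values were seen, as were the marker genes singled out. Some genes are not reported here. There were 10 alternatives, among them pseudocounts of 1 and 0.01 FPKM. Python 3.11.15, numpy 2.4.6, pandas 2.3.3 and matplotlib 3.10.9 were used.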

Additional observations from a re-analysis of the deposited data

Results flagged for a closer look

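For 5 values the change with c-di-GMP in a knockout differed from that in wild-type BMDCs by more than 2-fold, with an interval of the difference, built from the authors' intervals and not from replicates, that left out 0. The log2 change of Hmox1 in Tmem173-/- minus that in wild-type BMDCs was -2.49. For Srxn1 the same difference was -1.31. For Prdx1 it was -1.64. The log2 change of Hmox1 in Irf1-/- minus that in wild-type BMDCs was -2.13. The log2 change of Nqo1 in Irf3/7-/- minus that in wild-type BMDCs was 1.67. Of all genes tested, 10.9% had a called lower and 10.9% a called higher change in Tmem173-/- than in wild-type BMDCs. The shares were 2.48% lower and 2.55% higher for Irf1-/-, and 2.52% lower and 3.8% higher for Irf3/7-/- BMDCs.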

How the results depend on the processing

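The 10 alternatives were applied to 140 values, 10 members in 14 comparisons, and none changed the sign of a called value. Another pseudocount, another or no minimum FPKM, the fold change alone, and a z value from the intervals with Benjamini-Hochberg adjustment left all 140 calls as they were, and median centring added 1. A threshold of 4-fold kept 108 values on their side and ended 32 calls. The number of members called was then 1 for c-di-GMP in wild-type, 0 in Irf1-/- and 1 in Irf3/7-/- BMDCs, 0 for untreated Tmem173-/- and 0 for untreated Irf3/7-/- against wild-type BMDCs, 0 for treated Tmem173-/-, 0 for treated Irf1-/- and 1 for treated Irf3/7-/- against wild-type BMDCs, 1 for treated Irf1-/- against Irf3/7-/- BMDCs, and 1 and 0 for the differences of changes in Tmem173-/- and Irf3/7-/- BMDCs. A threshold of 1.5-fold, and the intervals alone, added 12 calls each. Each gave 7 members called in treated Irf3/7-/- against wild-type BMDCs, where the report has 3, and 2 for the differences of changes in Irf1-/- and in Irf3/7-/- BMDCs, where it has 1. The shares of all genes called under the alternatives are not given, and a looser rule calls more of all genes too. The counts of members under other rules therefore cannot be set against a background. No paired analysis was possible because the authors pooled the replicates, so the columns carry no replicate numbers, and for the same reason no replicate could be left out. The intervals of 1 pooled estimate cannot show how cultures differ, and depth could not be read from FPKM.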
